A study of Mus musculus with 10 samples.

Results

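The 10 genes Scin, Gsn, Vil1, Misp, Eps8, Eps8l1, Eps8l2, Plekhg6, Ezr and Espn, out of 45706 in the count table of mouse uterus in early pregnancy, encode regulators of actin at the epithelial apical surface. They were picked by role, as proteins that sever, cap, bundle or anchor actin in microvilli, and they were also selected on their measured values, because results of the same genotype comparison were known when the list was drawn up. Whole uteri of adult mice were collected on gestation day (GD) 3.5, shortly before embryos implant. There were 5 control Arid1a f/f uteri and 5 from Ltf iCre/+ Arid1a f/f mice, named Cre-positive uteri below. Both genotypes carry the floxed Arid1a alleles, and the second also carries a Cre recombinase expressed from the Ltf (lactoferrin) locus, which is active in the endometrial epithelium, so that the controls lack the Cre as well as the deletion. The authors cite reports of this Cre in neutrophils and other myeloid cells, and do not exclude a part of Arid1a deletion there. Arid1a encodes a DNA-binding subunit of SWI/SNF chromatin remodeling complexes. All values below are from RNA of the whole organ, in which epithelium is a minor tissue beside stroma and myometrium. In such samples fewer cells of a type and less RNA per cell cannot be told apart.

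Microvilli are finger-like protrusions of the apical membrane, each built around a core of parallel actin filaments. Bundling proteins such as villin, espin and plastin hold the filaments together, EPS8 proteins cap their growing ends at the tip, ezrin ties the core to the membrane along its sides, and the filaments are rooted below in the terminal web of myosin, spectrin and keratin. Proteins of the gelsolin family cut and cap filaments when calcium rises. In the rodent uterus the microvilli of the luminal epithelium shorten and flatten around the time of implantation.

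Promoter sequences were available for 7 of the 10 genes. They are shown for the 4 of these that passed the threshold between genotypes as given further on, so that the sequence in front of genes that were higher and lower can be compared. Each line gives the bases directly before the gene on its own strand, from RefSeq on the GRCm38.p6 build, and ends before both the RefSeq and the GENCODE start of the gene. Capitals mark an SRF CArG box in Vil1, an AP-1 motif (TGANTCA) in Ezr and GC boxes (GGGCGG or its complement) in Scin and Eps8l2, searched on both strands.
Vil1, chr1:74409134-74409375, plus strand: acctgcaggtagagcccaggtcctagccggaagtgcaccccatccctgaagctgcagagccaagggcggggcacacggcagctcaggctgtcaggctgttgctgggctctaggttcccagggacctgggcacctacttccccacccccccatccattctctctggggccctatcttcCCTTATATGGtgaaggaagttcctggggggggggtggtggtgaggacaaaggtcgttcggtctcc
Scin, chr12:40134229-40134478, minus strand: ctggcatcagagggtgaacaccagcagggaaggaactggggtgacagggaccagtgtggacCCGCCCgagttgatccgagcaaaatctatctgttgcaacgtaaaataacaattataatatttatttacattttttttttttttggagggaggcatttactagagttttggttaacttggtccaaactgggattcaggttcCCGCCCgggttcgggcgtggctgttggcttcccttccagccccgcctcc
Ezr, chr17:6782785-6783030, minus strand: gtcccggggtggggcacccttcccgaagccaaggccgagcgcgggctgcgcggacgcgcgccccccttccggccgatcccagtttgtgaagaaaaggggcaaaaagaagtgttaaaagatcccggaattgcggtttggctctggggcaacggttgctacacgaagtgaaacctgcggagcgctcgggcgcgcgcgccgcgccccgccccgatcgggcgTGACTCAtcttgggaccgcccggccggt
Eps8l2, chr7:141338752-141338879, plus strand: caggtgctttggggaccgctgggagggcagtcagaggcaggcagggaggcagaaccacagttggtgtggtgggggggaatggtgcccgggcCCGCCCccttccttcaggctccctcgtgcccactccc
The CArG box of Vil1 spans bases 73 to 64 before its RefSeq start, and 1.44% of all 32851 mouse promoters of the same length held one. The AP-1 motif of Ezr spans bases 32 to 26 before the start, and 6.69% of promoters of that length held one. Over the 250 bases before a start, GC boxes were found in a promoter of all 7 genes. Counted by promoter, that was 12 of the 13 promoters of these genes, beside 32.7% of all promoters. An E-box of the letters CACCTG was found for Gsn, Eps8l1 and Eps8l2, in 4 of the 13 promoters, beside 17.2% of all promoters. Gsn, Espn and Eps8l1 have more than 1 promoter each, and those of Eps8l1 overlap in part, so the 13 are not separate sequences. The letters TATAAA were found for none of the 7 genes and in 12.4% of all promoters. Neither the 2 lower nor the 2 higher genes shown share a motif that the other pair lacks among the 5 searched.

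Total counts per uterus ranged from 59296537 to 72702411, and levels are stated in CPM, the counts of a gene in proportion to the TMM-normalized size of its library. As a check of the genotype, Arid1a stood at 251, 210, 213, 192 and 197 CPM in control uteri 1 to 5 and at 208, 191, 179, 182 and 165 CPM in Cre-positive uteri 1 to 5. The log2 fold change of Arid1a was -0.20 (SE 0.09) and did not pass the threshold (adjusted p = 0.201, edgeR quasi-likelihood test with Benjamini-Hochberg adjustment). Ltf, whose locus carries the Cre, was 2.22 to 11.7 CPM in controls and 23.6 to 2830 CPM in Cre-positive uteri. Neither gene measures the deletion in epithelium, since counts were taken over each whole gene and over all cells of the organ. Of 15 general epithelial markers, none of them at 0 counts in every uterus, 9 were called higher and 0 lower in Cre-positive uteri, among them Epcam (log2 fold change 1.19, SE 0.32), Cdh1 (0.82, SE 0.16) and Krt8 (0.87, SE 0.20). Epcam was highest in Cre-positive uteri 1 (330 CPM) and 5 (322 CPM), beside at most 137 CPM in the other uteri, and passed in 9 of 17 fits. The 15 markers summed to 1050 to 1400 CPM in controls and 1500 to 3110 CPM in Cre-positive uteri, highest in uteri 1 (3110 CPM) and 5 (2210 CPM). In the other direction, the summed level of 7 gland markers was 96.7 to 144 CPM in controls and 34.2 to 54.8 CPM in Cre-positive uteri, with 1 of them called lower. Neutrophil markers summed to 856 CPM in Cre-positive uterus 5 and to at most 24.7 CPM in each of the other uteri. The epithelial and gland markers moved with genotype and therefore with every gene difference below, and their part in these differences was not tested.

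Of the 10 genes, 4 were higher (Plekhg6, Eps8l2, Misp and Ezr) and 2 were lower (Scin and Vil1) in Cre-positive uteri at an adjusted p under 0.05. Of all 25146 genes tested 9.70% passed, 5.19% of all genes tested being higher and 4.51% lower. The values of the same 6 genes did not overlap between the genotypes, which was so for 10.7% of all genes tested. The 10 genes were chosen with this comparison in view, so these counts and the fold changes that follow describe the genes and are given without p-values. The numbers of fits passed, given below for each gene, are likewise descriptive. All fits reuse the same uteri, so passing in many of them shows little dependence on processing and is no separate support. All 10 passed the filter on low counts, with 21 to 38674 counts in any uterus. The median log2 fold change was 0.49 over the 10 genes and 0.026 over all genes tested. By family, the 3 gelsolin family genes were all below the control mean, the 3 EPS8 family genes were all above it, and the largest differences in each direction were those of Plekhg6 and Scin.

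**Figure D1:**
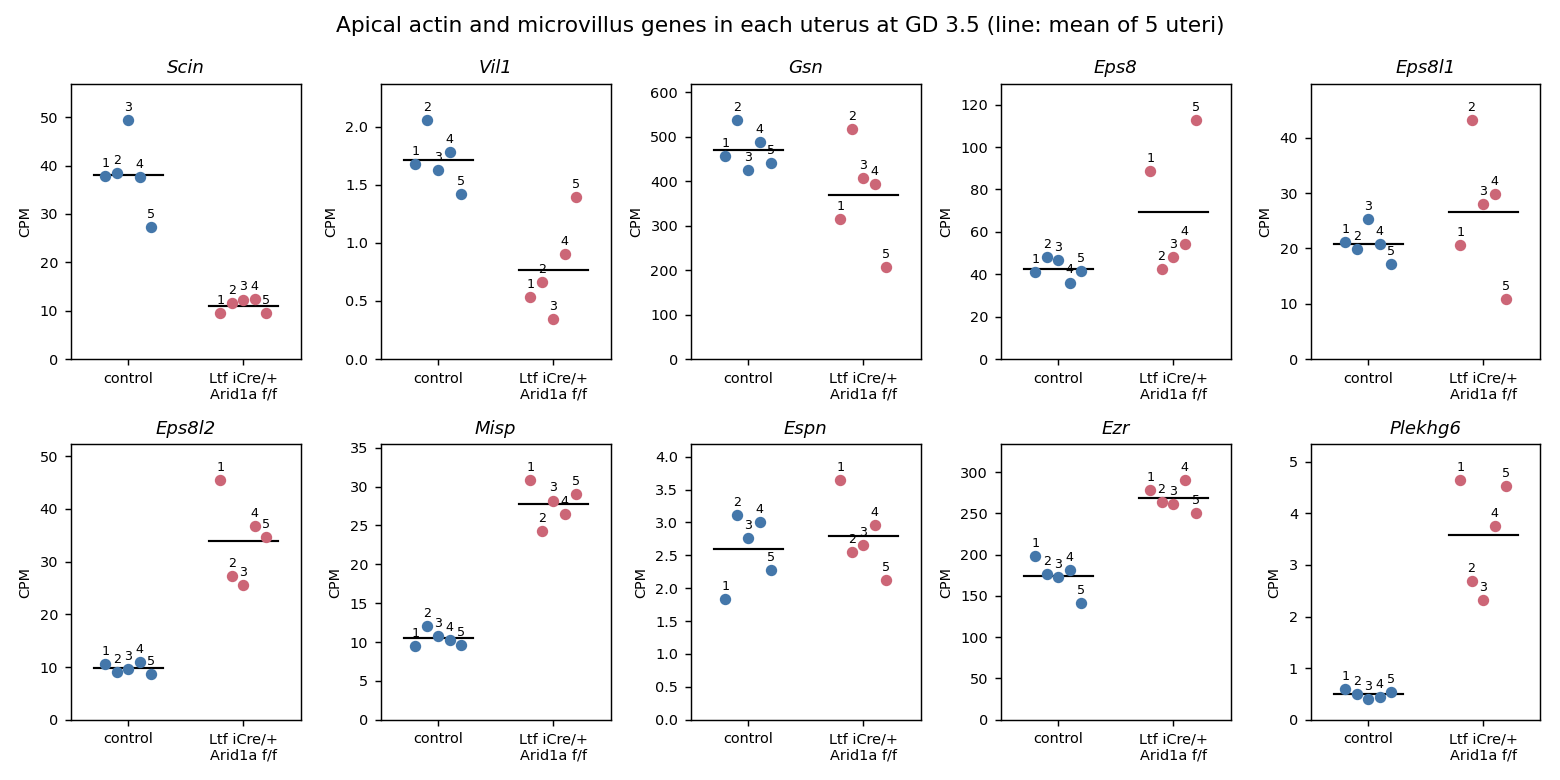
Expression (CPM, linear axes that start at 0) of the 10 genes in each of 5 control and 5 Cre-positive uteri, with replicate numbers beside the points and a line at each mean. Scin, Vil1, Eps8l2, Misp, Ezr and Plekhg6 show separate groups, while Gsn, Eps8, Eps8l1 and Espn overlap.

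Scin (scinderin, ENSMUSG00000002565, chr12:40059769-40134228) encodes a calcium-dependent protein that severs and caps actin filaments. It stood at 37.8, 38.5, 49.5, 37.6 and 27.2 CPM in control uteri 1 to 5 and at 9.46, 11.5, 12.3, 12.4 and 9.51 CPM in Cre-positive uteri 1 to 5. The highest Cre-positive uterus thus lay well below the lowest control, with means of 11.0 ± 1.45 CPM (SD, n = 5) in Cre-positive uteri and 38.1 ± 7.88 CPM (SD, n = 5) in controls, which had the wider spread. The log2 fold change was -1.79 (SE 0.15), and Scin passed the threshold in 17 of 17 fits (the one above and its alternatives of test, normalization, filter, replicate block and uteri left out), with values from -1.90 to -1.66.

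Vil1 (ENSMUSG00000026175, chr1:74409376-74435559) encodes villin, the bundling protein of the intestinal brush border, which also severs filaments at high calcium. Its level was low, at 1.68, 2.06, 1.63, 1.78 and 1.42 CPM in controls and 0.533, 0.659, 0.343, 0.901 and 1.39 CPM in Cre-positive uteri, which corresponds to 99 to 148 counts and 21 to 96 counts. Uterus 5 of the Cre-positive group came within 3 counts of the control with the fewest, while the other 4 were clearly lower. Its log2 fold change was -1.16 (SE 0.33), and whether it passed depended on the fit. Vil1 passed the threshold in 5 of 17 fits, and when single uteri were left out it passed only without Cre-positive uterus 5 (log2 fold change -1.49).

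Gsn (gelsolin, ENSMUSG00000026879, chr2:35256380-35307892), the founding member of the family, is made in many cell types including smooth muscle and stroma. It was measured at 457, 539, 426, 488 and 441 CPM in controls and at 316, 517, 407, 395 and 207 CPM in Cre-positive uteri. The groups overlapped because of uterus 2 alone, and the other 4 Cre-positive uteri lay below every control. Gsn had a log2 fold change of -0.35 (SE 0.20) and passed in 0 of 17 fits, and without uteri 1 and 5 of the Cre-positive group, an alternative added after the values were seen, it was -0.10. Smooth muscle markers summed to 8510, 14300, 12900, 10300 and 8270 CPM in control uteri 1 to 5. In Cre-positive uteri 1 to 5 they summed to 9670, 11400, 5970, 6320 and 4750 CPM. Among Cre-positive uteri, uterus 2 was highest and uterus 5 lowest in both these markers and Gsn, while uteri 1, 3 and 4 stood in reverse order. Control uterus 3, with the lowest Gsn of the controls, was second highest in these markers. The part of these markers in the values of Gsn was not tested.

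EPS8 proteins cap the fast-growing ends of actin filaments and bundle them, and EPS8 itself sits at the tips of microvilli. The genes of this family differed in how they moved. Eps8l2 (ENSMUSG00000025504, chr7:141338880-141363020) stood at 10.6, 9.12, 9.64, 10.9 and 8.60 CPM in controls and at 45.4, 27.2, 25.5, 36.8 and 34.6 CPM in Cre-positive uteri. All 5 Cre-positive uteri lay far above the controls, with uteri 2 and 3 the lowest of them. Eps8l2 had a log2 fold change of 1.80 (SE 0.16) and passed in 17 of 17 fits, from 1.61 to 1.88. Eps8l2 shares 32.2% of its exon bases with B230206H07Rik on the opposite strand, and whether the counting used strand is not stated in the sources used here. That gene was listed at 3 to 6 counts in controls and 2 to 17 counts in Cre-positive uteri, against 599 to 768 and 1558 to 2896 counts for Eps8l2.

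Eps8 (ENSMUSG00000015766, chr6:137477245-137654876) stood at 41.0, 48.0, 46.6, 36.1 and 41.7 CPM in controls and at 88.7, 42.5, 48.1, 54.1 and 113 CPM in Cre-positive uteri. Uteri 1 and 5 carried the difference, uterus 2 lay inside the control range and uterus 3 just above it. The log2 fold change of 0.70 (SE 0.24) passed in 2 of 17 fits, those with DESeq2 and without Cre-positive uterus 2 (0.83), and it was 0.18 without uteri 1 and 5.

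Eps8l1 (ENSMUSG00000006154, chr7:4460674-4480487) ran the other way in the same uteri. It stood at 21.1, 19.9, 25.3, 20.8 and 17.2 CPM in controls and at 20.7, 43.3, 28.1, 29.9 and 10.9 CPM in Cre-positive uteri. Uteri 2, 3 and 4 were above every control, uterus 1 was inside the control range and uterus 5 was below every control, so that the log2 fold change was 0.35 (SE 0.28). Without uteri 1 and 5 it was 0.69 (SE 0.16) and passed, the only 1 of 17 fits in which it did. Uteri 1 and 5 thus had the highest Eps8 and the lowest Eps8l1 and Gsn of their genotype. These uteri also had the highest summed epithelial markers, and the part of those markers was not tested.

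Scaled to exon length (RPKM of the normalized library size, which allows levels of different genes to be compared), Eps8l2 made up 20.9% ± 2.38 of the summed level of Eps8, Eps8l1 and Eps8l2 in controls and 38.3% ± 4.92 in Cre-positive uteri (SD, n = 5 each). Its share was 18.4% to 24.2% in controls and 32.3% to 44.3% in Cre-positive uteri, with no overlap. Eps8 and Eps8l1 each held about as much as the other in controls (39.6% ± 3.79 and 39.5% ± 2.73). This depends on the merged exon lengths used, 12355 bases for Eps8 and 6036 bases for Eps8l1. Without that scaling their control means were 42.7 and 20.9 CPM. In Cre-positive uteri their shares were spread widely, from 10.4% to 45.7% for Eps8l1 and from 22.0% to 52.6% for Eps8.

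**Figure D2:**
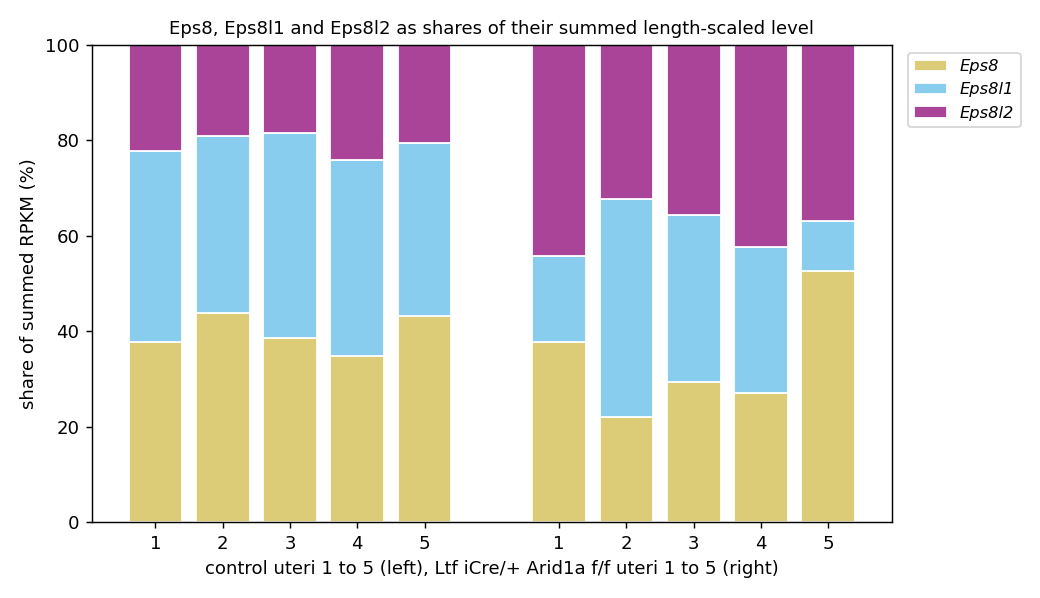
Share (%) of Eps8, Eps8l1 and Eps8l2 in the sum of their length-scaled levels (RPKM), as 1 stacked bar for each of 5 control uteri (left) and 5 Cre-positive uteri (right). Eps8l2 is 18.4% to 24.2% of each control bar and 32.3% to 44.3% of each Cre-positive bar, and Eps8l1 is smallest, at 10.4%, in Cre-positive uterus 5.

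Of the bundling proteins outside these families, Misp was higher and Espn did not pass. Misp (ENSMUSG00000035852, chr10:79820989-79830490) encodes a protein that bundles actin at the rootlets of microvilli and anchors the spindle at the cell cortex in mitosis. It stood at 9.54, 12.1, 10.8, 10.3 and 9.56 CPM in controls and at 30.8, 24.3, 28.2, 26.5 and 29.0 CPM in Cre-positive uteri. Both groups were tight, and the log2 fold change of 1.41 (SE 0.11) passed in 17 of 17 fits, from 1.33 to 1.46. Espn (espin, ENSMUSG00000028943, chr4:152120331-152152371), which encodes a strong cross-linker of the parallel filaments of microvilli and hair cell stereocilia, was at 1.83, 3.11, 2.76, 3.01 and 2.28 CPM in controls and 3.64, 2.55, 2.65, 2.96 and 2.13 CPM in Cre-positive uteri. The groups overlapped, with control uterus 1 below every Cre-positive uterus and Cre-positive uterus 1 above every control, and the log2 fold change of 0.10 (SE 0.21) passed in 0 of 17 fits. It was -0.01 without control uterus 1 and -0.02 without Cre-positive uterus 1.

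Ezr and Plekhg6 were both higher. Ezr (ezrin, ENSMUSG00000052397, chr17:6738041-6782784) encodes the epithelial member of the ERM proteins, which tie the membrane to actin, and is abundant in uterine epithelium. It was measured at 198, 176, 173, 181 and 141 CPM in controls and at 278, 264, 261, 290 and 250 CPM in Cre-positive uteri. The groups did not overlap and had the smallest relative spread of the 10 genes in Cre-positive uteri, an SD of 5.76% of the mean. Ezr had a log2 fold change of 0.63 (SE 0.09) and passed in 17 of 17 fits, from 0.55 to 0.67. Plekhg6 (ENSMUSG00000038167, chr6:125362660-125380793) encodes a guanine nucleotide exchange factor, an activator of small GTPases that binds ezrin and myosin. It was near the bottom of the list in controls, at 0.601, 0.502, 0.407, 0.440 and 0.546 CPM (26 to 43 counts), and stood at 4.64, 2.69, 2.32, 3.75 and 4.53 CPM (142 to 313 counts) in Cre-positive uteri. This was a ratio of means of 7.18 and a log2 fold change of 2.84 (SE 0.25), which passed in 17 of 17 fits, from 2.54 to 2.96.

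In length-scaled level, the order in controls ran from Gsn (149 ± 14.2 RPKM, SD, n = 5) and Ezr (52.9 ± 6.25 RPKM) through Scin (12.7 ± 2.63 RPKM) to Vil1 (0.483 ± 0.0660 RPKM), Espn (0.314 ± 0.0646 RPKM) and Plekhg6 (0.151 ± 0.0237 RPKM). Misp (3.67 ± 0.377 RPKM), Eps8l1 (3.46 ± 0.484 RPKM) and Eps8 (3.45 ± 0.387 RPKM) stood between Scin and Eps8l2 (1.82 ± 0.180 RPKM) and could not be ordered beyond their spread. In Cre-positive uteri Scin, at 3.68 ± 0.482 RPKM, had moved below Misp (9.74 ± 0.873 RPKM), Eps8l2 (6.31 ± 1.49 RPKM), Eps8 (5.61 ± 2.46 RPKM) and Eps8l1 (4.40 ± 1.98 RPKM), of which the last 2 did not differ from it by more than their own SD. Plekhg6 (1.09 ± 0.319 RPKM) had moved above Espn (0.337 ± 0.0680 RPKM) and Vil1 (0.215 ± 0.114 RPKM), which was now the lowest. Gsn (117 ± 36.5 RPKM) remained the highest in mean, by less than its own SD over Ezr (81.6 ± 4.70 RPKM).

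Since the summed epithelial markers were higher in Cre-positive uteri, each gene was also expressed as a percentage of that sum in the same uterus. On this scale Scin was 2.35% to 4.72% of the epithelial sum in controls and 0.304% to 0.820% in Cre-positive uteri, a log2 difference of -2.49. Vil1 (log2 difference -2.02) and Gsn (-1.12) also lay lower without overlap, Gsn at 35.0% to 41.8% of the sum in controls and 9.36% to 29.9% in Cre-positive uteri. Plekhg6 (log2 difference 2.09) and Eps8l2 (1.06) stayed higher without overlap. Misp was at 0.735% to 1.03% and at 0.990% to 1.88% of the sum, so that the groups met at their edges (log2 difference 0.70). The difference in Ezr was -0.08 on this scale, with 12.2% to 16.5% in controls and 8.93% to 17.4% in Cre-positive uteri. Eps8 (-0.11), Eps8l1 (-0.49) and Espn (-0.61) overlapped as well. The ratio takes all of each gene's RNA as if it came from epithelium, which whole-organ counts do not show.

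**Figure D3:**
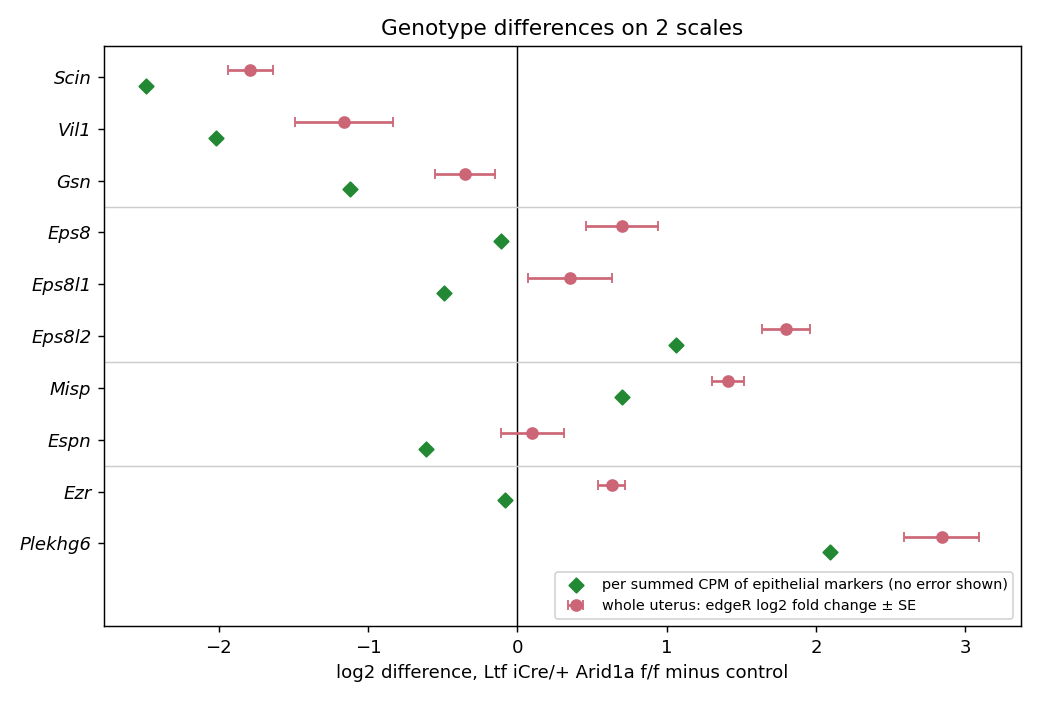
Log2 differences (Ltf iCre/+ Arid1a f/f minus control) of the 10 genes, grouped by role from the gelsolin family at the top to membrane linking at the bottom, as edgeR fold changes in whole uterus with SE (circles, 5 against 5 uteri) and relative to the summed CPM of 15 epithelial markers (diamonds). Scin, Vil1 and Gsn are below 0 and Eps8l2, Misp and Plekhg6 above 0 on both scales, and Ezr moves from 0.63 to -0.08. Eps8, Eps8l1 and Espn also move from above to below 0.

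A wider list of 66 genes of the same structures was drawn up by role, of which 65 had enough counts to be tested. Of these, 12 were called higher and 6 lower in Cre-positive uteri (27.7%, beside 9.70% of all genes tested), and their median log2 fold change was -0.01 (0.026 over all genes tested). Membership in the list was decided by known role, with results of these data known. All adjusted p-values below are from edgeR's quasi-likelihood test, adjusted over all genes tested.

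Among core bundlers and tip proteins, 3 of 20 were called higher and 1 was called lower. Avil (advillin), a close relative of villin, was at 2.66, 0.948, 1.35, 1.63 and 1.61 CPM in controls and at 28.7, 11.4, 7.06, 11.5 and 15.5 CPM in Cre-positive uteri, and rose with a log2 fold change of 3.18 (SE 0.39, adjusted p = 0.00156). In controls Avil and Vil1 had nearly the same length-scaled level (0.482 and 0.483 RPKM), and in Cre-positive uteri Avil was at 4.37 RPKM and Vil1 at 0.215 RPKM. The other gelsolin relatives on the list, named here after their values were seen, were Capg, a capping protein that rose (log2 fold change 0.50, SE 0.09, adjusted p = 0.00956), and Vill (-0.05), Svil (-0.22) and Flii (-0.05), which did not pass. Of the 8 gelsolin superfamily genes listed in all, Scin and Vil1 were thus called lower, and Avil and Capg higher.

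Pls1 (plastin 1), the bundling protein shared by intestinal microvilli and inner ear stereocilia, was at 11.1 to 12.2 CPM in controls and at 61.9, 28.4, 27.8, 34.8 and 34.2 CPM in Cre-positive uteri. It rose with a log2 fold change of 1.67 (SE 0.20, adjusted p = 0.00137), and uterus 1 stood apart from the other 4. Cobll1, a relative of the actin nucleator cordon-bleu, was lower (log2 fold change -0.65, SE 0.13, adjusted p = 0.0104).

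Of 13 other genes of membrane linking, 1 was called higher and 3 were called lower. The other ERM genes did not follow Ezr. Msn (moesin) was at 345 to 529 CPM in controls and 282 to 364 CPM in Cre-positive uteri, overlapping but lower with a log2 fold change of -0.46 (SE 0.13, adjusted p = 0.0424). It passed in only 8 of 17 fits. Rdx (radixin) was at 417 to 541 CPM and 273 to 454 CPM (log2 fold change -0.37, SE 0.13, adjusted p = 0.102). Both are made widely outside epithelium. The adaptors that bind ERM proteins at the apical membrane went in opposite directions. Slc9a3r1 (EBP50), the microvillar adaptor of ezrin, was at 24.1, 32.5, 32.7, 29.5 and 28.1 CPM in controls and 73.9, 48.1, 36.2, 45.2 and 49.2 CPM in Cre-positive uteri (log2 fold change 0.78, SE 0.17, adjusted p = 0.0164). The groups did not overlap, and Cre-positive uterus 1 was again the highest. Slc9a3r2, its paralog, was at 79.4 to 90.8 CPM and 49.5 to 62.5 CPM (log2 fold change -0.67, SE 0.08, adjusted p = 0.00161). Podxl (podocalyxin), an anti-adhesive sialomucin that binds these adaptors and is also made by vessels, was at 141 to 262 CPM and 87.2 to 131 CPM (log2 fold change -0.99, SE 0.17, adjusted p = 0.00614).

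The calls among microvillar motors split evenly, with 2 of 8 called higher and 2 called lower. Myo6, a myosin that walks toward the base of microvilli, was at 157 to 197 CPM in controls and lower, at 80.8 to 121 CPM, in Cre-positive uteri (log2 fold change -0.87, SE 0.11, adjusted p = 0.00161). Myo1a, the brush border myosin, was at 1.45 to 1.90 CPM and 0.533 to 1.35 CPM (log2 fold change -0.93, SE 0.26, adjusted p = 0.0434) and passed in 5 of 17 fits. Myo5b, which carries recycling vesicles to the apical membrane, was higher (21.0 to 26.3 and 29.7 to 70.8 CPM, log2 fold change 0.84, SE 0.20, adjusted p = 0.0247) and passed in 13 of 17 fits. Myo1d, another membrane-bound myosin of microvilli, had a log2 fold change of 1.08 (SE 0.30, adjusted p = 0.0443). It was highest in uteri 1 (111 CPM) and 5 (96.2 CPM) of the Cre-positive group, overlapped the controls in uterus 3 (33.0 CPM, beside at most 36.0 CPM), passed in 8 of 17 fits and was 0.39 without uteri 1 and 5.

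Terminal web and apical membrane genes were called higher in 6 of 14 cases and called lower in 0. By fold change 9 of them were above 0 and 5 below. Prom2 (prominin 2), which marks membrane protrusions, was at 0 to 0.112 CPM in controls (0 to 8 counts) and at 9.72, 4.12, 3.22, 3.49 and 1.68 CPM in Cre-positive uteri, a log2 fold change of 6.63 (SE 0.82, adjusted p = 0.00156). Myh14, a nonmuscle myosin heavy chain of epithelial apical junctions, was at 16.8 to 22.6 CPM and 28.9 to 66.9 CPM (log2 fold change 1.04, SE 0.20, adjusted p = 0.0101). The keratins Krt8 (91.4 to 128 and 140 to 315 CPM, adjusted p = 0.0220) and Krt19 (95.4 to 149 and 150 to 298 CPM, log2 fold change 0.77, adjusted p = 0.0289), which also stand in the epithelial marker list, were higher and passed in 14 and 11 of 17 fits.

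Of the 5 genes of intermicrovillar adhesion tested, 0 passed in either direction. The adhesion complex is a feature of the mature intestinal brush border. Of the genes tested only Calml4, a calmodulin-like light chain named here after its values were seen, had a mean above 1 CPM (8.82 CPM in controls and 7.72 CPM in Cre-positive uteri), and the next highest control mean was 0.285 CPM. Of the 5 genes for actin and its monomer-binding proteins 0 passed as well. Actb stood at 2130 to 3090 CPM in controls and 2230 to 3440 CPM in Cre-positive uteri (log2 fold change 0.02, SE 0.15), and Actg1 at 315 to 378 CPM and 301 to 378 CPM (log2 fold change -0.05, SE 0.09).

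**Figure D4:**
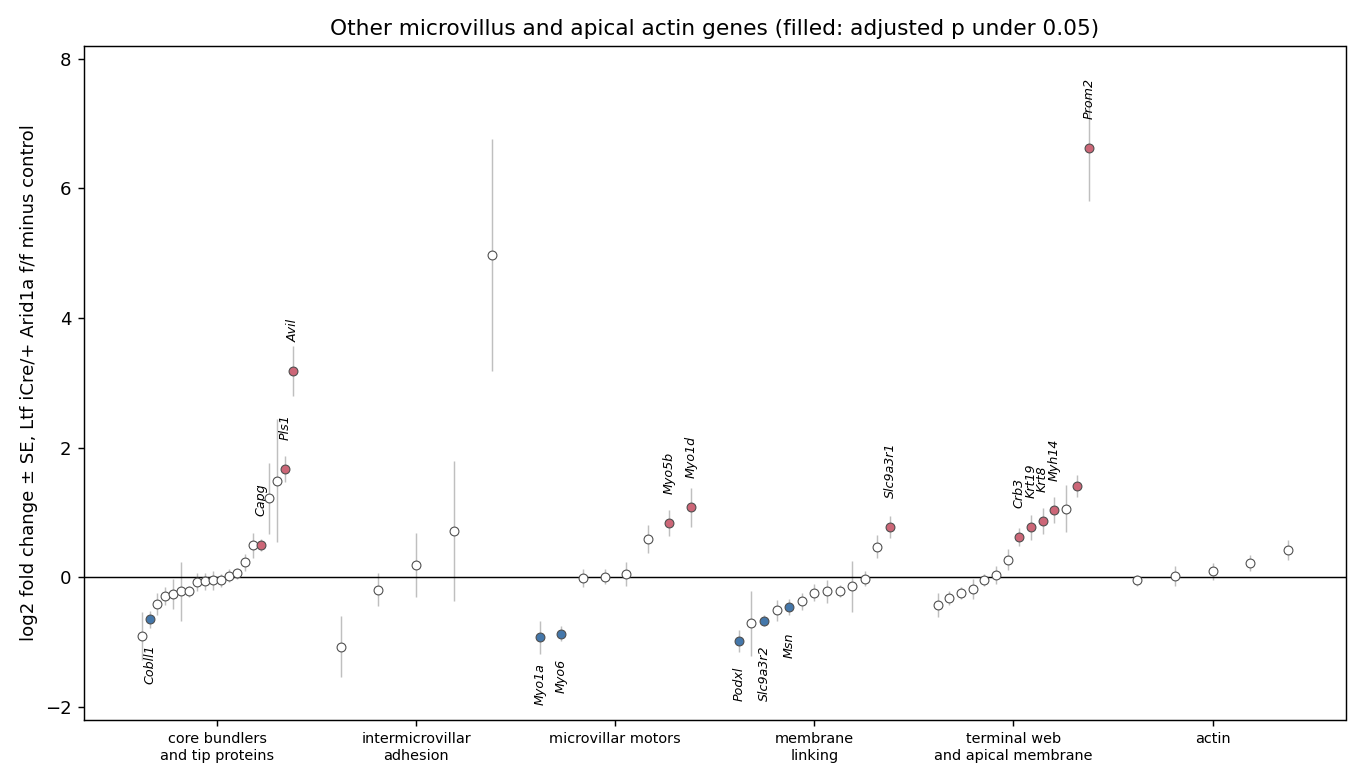
Log2 fold changes (Ltf iCre/+ Arid1a f/f minus control, with SE, 5 against 5 uteri) of the 65 tested genes of the wider list, in 6 groups by role and in order of size within each. Red and blue points passed at an adjusted p under 0.05, 12 higher and 6 lower, with names beside most of them, and open points did not pass. The open point at 4.98 is Cdhr2, with 0 counts in every control and 0 to 12 counts in Cre-positive uteri.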

How the data were processed

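The deposited table holds whole-number counts per gene for 10 uterine libraries, without normalization. The authors made it by trimming paired 50 bp reads with Trim Galore 0.6.4 and cutadapt 1.18, aligning them to GRCm38 with STAR 2.7.3a and counting reads per gene in STAR. The annotation release and strand setting are not given in the sources used here.

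Genotypes were compared by the quasi-likelihood test of edgeR 4.0.16 in R 4.3.3, without covariates, on TMM-normalized counts of the 25146 genes that averaged 1 or more counts, with Benjamini-Hochberg adjustment over them and a threshold of 0.05. Symbols, exon lengths and positions came from GENCODE vM21 on GRCm38, in which 45143 identifiers were found, and promoter sequences from RefSeq on GRCm38.p6. At this depth 3 counts correspond to 0.0418 to 0.0507 CPM. RPKM is CPM per kilobase of merged exons. P-values measure the spread between uteri, which the labels list as separate samples. Alternatives were DESeq2 1.42.0, RLE size factors, other filters on low counts, a replicate block, each uterus left out, and both Cre-positive (Ltf iCre/+ Arid1a f/f) uteri 1 and 5 left out, the last added after the values were seen.

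The 10 genes, the wider list and the marker lists were chosen with earlier results of these data known. All 10 genes are named. Of the wider list, every gene past the threshold was to be named up to 8 in each direction by absolute log2 fold change, together with Actb, Actg1, Msn, Rdx, Slc9a3r1, Pls1 and Krt19, and 1 gene that this rule names is not reported here. Marker lists covered epithelium, gland, luminal epithelium, ciliated cells and oviduct, stroma, smooth muscle, macrophage, neutrophil and lymphocyte. Same-numbered uteri of the genotypes were not treated as pairs in the main test, and the replicate block was the alternative. The correlations of their deviations from the group means were between -0.0529 and 0.128, highest for replicate 5. The authors compared littermates where they could, and the labels do not say which uteri came from littermates.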

Additional observations from a re-analysis of the deposited data

Results flagged for a closer look

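A single uterus stood far from the other 4 of its genotype, by Dixon's criterion for 5 samples, in 8 of 92 groups examined, and chance alone gives about 1 group in 20. None of the 8 was a value of the 10 genes. Cre-positive uterus 1 was high in Pls1 (61.9 CPM, 27.8 to 34.8 in the others), Myo5b (70.8 CPM, 29.7 to 40.9) and Krt8 (315 CPM, 140 to 178). Cre-positive uterus 5 was high in Ltf (2830 CPM, 23.6 to 383 in the others), in the summed neutrophil markers (856 CPM, 13.1 to 23.6) and in the summed macrophage markers (703 CPM, 285 to 392). It was low in Vill (28.6 CPM, 44.3 to 48.9 in the others). Ltf was also high in control uterus 1 (11.7 CPM, 2.22 to 3.76 in the others).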

How the results depend on the processing

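Of the 10 genes, Scin, Eps8l2, Misp, Ezr and Plekhg6 passed the threshold in every fit, and 5 to 7 of the 10 did in any one of them. The fits reuse the uteri whose results were known when the genes were chosen, so they are no separate support. With the replicate number as a block 5 of the 10, 13 genes of the wider list and 1704 of all genes passed, Vil1 being the one lost of the 10 (log2 fold change -1.30). DESeq2 called 4103 genes in all, and leaving out 1 uterus at a time left 1204 to 2381, with 1204, 1248 and 1414 without control uteri 2, 3 and 4. The same omissions gave 5 to 6 of the 10 genes and 12 to 21 of the wider list. Relative to the epithelial markers the log2 difference of Ezr was -0.08, and leaving out 1 uterus put Espn between -0.02 and 0.18 and Actb between -0.09 and 0.08, and Vill between -0.12 and 0.07. Without both Cre-positive uteri 1 and 5, Actb was at -0.06 and Vill at 0.07. The causes were not tested.

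Calls that changed when 1 uterus was left out were these. Vil1 did not pass without any one uterus other than Cre-positive uterus 5 (-1.22 to -0.97), nor Myo1a without any one other than Cre-positive uterus 2 (-0.98 to -0.80). Myo1d (0.81 to 1.13) and Epcam (0.95 to 1.24) did not pass without any one control or without Cre-positive uterus 1 or 5. Msn (-0.50 to -0.39) did not without control uterus 1, 2, 3 or 4 or Cre-positive uterus 3, 4 or 5, Myo5b (0.79 to 0.87) without control uterus 2, 3, 4 or 5, Krt8 (0.81 to 0.85) without control uterus 2, 3 or 5 and Krt19 (0.69 to 0.79) without control uterus 1, 2, 3 or 5. Eps8 (0.83) and Rdx (-0.48) passed without Cre-positive uterus 2. Under the replicate block Slc9a3r1 (0.75) also missed the threshold. With 21 to 148 counts per uterus, Vil1 is the called gene of the 10 with the fewest counts in any uterus.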

Other observations

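The remaining marker lists moved as follows in whole uterus. Of 6 luminal epithelium markers 2 were called higher, among them Wnt7a (log2 fold change 1.64, SE 0.28), and 0 lower. By fold change 3 of them were above 0 and 3 below, with a median of -0.25. Lpar3 (-1.19, SE 0.44) did not pass but was lower without overlap. It stood at 42.1 to 60.7 CPM in controls and 6.44 to 41.9 CPM in Cre-positive uteri. The summed level of the luminal markers was 555 to 953 CPM in controls and 447 to 966 CPM in Cre-positive uteri. The gland marker that was called lower was Foxa2, a transcription factor of glandular epithelium (log2 fold change -1.13, SE 0.19). Of 7 markers of ciliated cells and oviduct, 1 was called lower (Ovgp1, an oviduct glycoprotein, -2.21, SE 0.43). By fold change all 7 were below 0, with a median of -0.83. The sum of these 7 was 38.7 to 52.9 CPM in controls and 11.2 to 28.9 CPM in Cre-positive uteri, without overlap. Their part in the differences of the 10 genes was not tested. Of 10 stromal markers 2 were called lower (Vim, -0.94, SE 0.20, and Dcn, -0.65, SE 0.13), and their sum was 15500 to 22500 CPM in controls and 12800 to 22300 CPM in Cre-positive uteri. Of 8 smooth muscle and 8 macrophage markers 0 were called. Of 7 neutrophil markers tested 1 was called higher (Ly6g), and of 7 lymphocyte markers 2 were called higher (Cd3e, 2.04, SE 0.34, and Cd3d, 2.07, SE 0.34). All genes in this paragraph were named after their values were seen.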
